A study of Drosophila melanogaster with 4 samples.

Results

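In the Drosophila genome, a CG number is the provisional name of a gene predicted from sequence that had no name of its own when the annotation was made. The genes described here are 98 such genes whose ribosome-bound mRNA was recovered from the somatic cells of the ovary and was low or undetected in the germline. They were selected on the measured values themselves: a symbol made of CG and a number, at least 5 FPKM in both soma libraries, and a lower soma value at least 10 times the higher germline value, with 0 in the germline counted as passing. FPKM are the fragments of a gene per kilobase of its exons, scaled to the fragments of the library. The table lists 17490 genes, of which 7051 have a CG number. Both thresholds were met by 237 genes, 101 of them CG genes and 136 with another symbol, and the rule leaves out 12 listed CG symbols, of which CG10623, CG16700 and CG7888 had met the thresholds. As the soma and germline values chose the genes, the difference between soma and germline is given below as a description. Where a fit or an interval is printed for it, it describes the spread or the counting error and is not read as a test of these genes.

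The values come from translating ribosome affinity purification (TRAP), in which a GFP-tagged protein of the large ribosomal subunit is expressed in chosen cells and ribosomes are pulled down with an antibody to GFP, with the mRNA they carry. Soma libraries came from ovaries of tj:Gal4, UAS RPL10-GFP flies, whose driver follows traffic jam and is active in somatic cells of the ovary. Germline libraries came from ovaries of Nos:Gal4Vp16, UAS:RPL10-GFP flies, whose driver follows nanos and is active in germ cells. Each group had 2 libraries, 4 in all, made from dissected ovaries of many females; age is not given, and the libraries of a group are called biological replicates by the study, while the labels do not say whether they came from separate flies. The driver, the genotype and the cell type changed together, so they cannot be told apart. In pull-downs of whole ovaries, fewer cells of a type and less RNA per cell cannot be told apart either.

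The somatic cells of the ovary are mainly follicle cells, a secretory epithelium that encloses each cyst of germ cells. Follicle cells take part in yolk production and, late in oogenesis, secrete the eggshell: first the vitelline membrane, then a wax layer and the chorion. Several eggshell genes lie in clusters in the genome, and the main chorion clusters are amplified in follicle cells. Germ cells, which are the oocyte and its sister nurse cells, supply the egg with maternal RNA and protein.

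The libraries differed widely in depth. Multiplying each FPKM by the exon length of its gene and dividing by 1 constant per library gave whole reads, within 0.03, for 95.9% of the genes above 0. Soma replicate 1 held 17804190 such reads and the other libraries 2431795 to 3408009. Genes whose symbol contains rRNA accounted for 6.34% of the reads of soma replicate 1 (95% Wilson interval 6.33 to 6.35, counting error only) and for 56.1% to 74.7% elsewhere. Other genes were thus left with 16675983 reads in soma replicate 1, 615390 in soma replicate 2, and 1164462 and 1283288 in the germline libraries. On 1 kb of exon, 3 reads were worth 0.0699 and 2.43 FPKM in soma replicates 1 and 2, and 1.02 and 0.827 FPKM in the germline libraries. A read was thus worth less in germline replicate 2, although it held fewer recovered reads than germline replicate 1 (2925958 against 3408009). The scaling of the FPKM therefore did not follow the total of recovered reads. Of the follicle cell markers set for the cell type check, 8 were in the table, and the soma values of all 8 were above their germline values. The germ cell markers in the table were also 8, and all 8 were higher in the germline, with the soma at a median of 38.8% of it. Hemocyte markers summed to 0.043 FPKM in soma replicate 1 and were at 0 in the other libraries, and markers of fat body, trachea and neurons summed to at most 2.41, 0.635 and 1.04 FPKM in any library.

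The 98 genes spanned a wide range of levels. In soma replicate 1 they lay between 5.26 and 1645 FPKM with a median of 23.2, and in soma replicate 2 between 5.06 and 1528 FPKM with a median of 28.3. In germline replicate 1 they lay between 0 and 27.6 FPKM with a median of 0.789, and in germline replicate 2 between 0 and 39.9 FPKM with a median of 0.788. The mean germline value of a gene was at a median of 2.92% of its mean soma value. The follicle cell markers, which the rule did not touch, were at a median of 3.98% (range 2.002% to 13.2%), and a list of 22 eggshell and yolk genes at 4.998% (2.002% to 14.9%). Both lists hold psd, Vml and dec-1. The rule limits this share for its own genes but not for the lists, so the medians cannot be compared directly. In the plot of soma against germline values the genes lie below the line of a 10-fold difference, as the rule requires. The only other CG genes past both thresholds are the 3 that the rule leaves out by name.

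**Figure D1:**
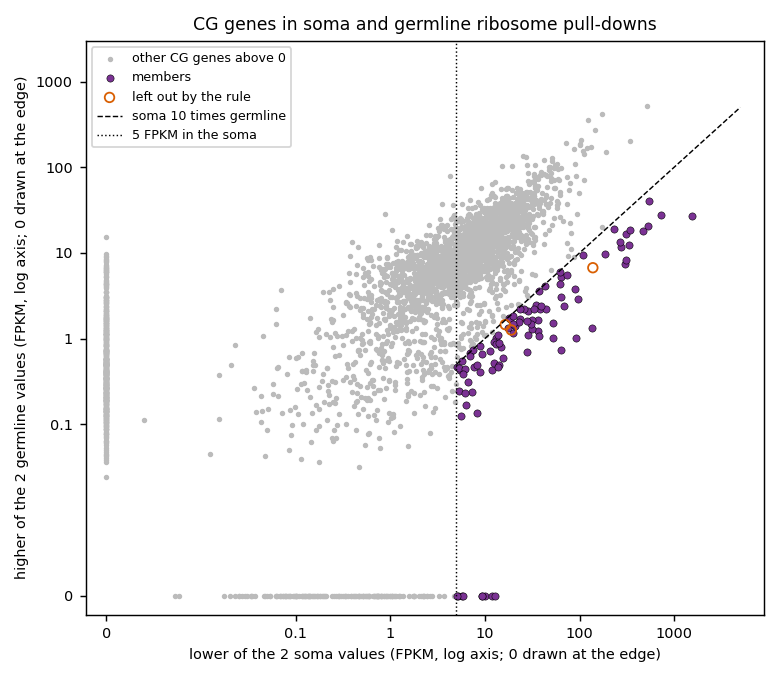
Each point is a CG gene above 0 in at least 1 of the plotted values. The lower of its 2 soma values is on the x axis and the higher of its 2 germline values on the y axis, in FPKM on log axes with 0 drawn at the edge. The 98 genes described here are filled in purple, the 3 genes left out by name are open circles, and the lines are the 2 thresholds of the rule.

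In limma on log2(FPKM + 0.1), the criteria were a soma level over 5-fold that of the germline and an unadjusted p under 0.05, and all 98 genes met them. Of the 8823 genes tested, 830 (9.41%) met these criteria, and with Benjamini-Hochberg adjusted p-values from limma, 544 (6.17%) did, again with all 98. The rule chose the genes on these 4 values, so nothing is read from their count. Their log2 fold changes had a median of 5.08 and ran from 3.50 to 7.51, where the median of all genes tested was 0.04. With the 9 genes at 0 set at their bound, the median was 4.90, and the median ratio of the lower soma to the higher germline value was 16.6. With 2 libraries a group, the p-values measure the spread between these libraries.

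CG genes took a larger share of the soma-confined genes than of the expressed ones. Of the 4677 genes at 5 FPKM or more in both soma libraries, 1495 were CG genes (32.0%), and of the 237 genes past both thresholds, 42.6% were. Put the other way, 6.76% of the CG genes at this level passed the 10-fold threshold, and 4.27% of the 3182 genes with another symbol. These shares are a description of the rule's outcome.

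At 100 FPKM or more in both soma libraries were 16 genes, and no protein family is given here for 12 of them. The highest was CG43134 (FBgn0262608), on chromosome X from 4247313 to 4247785 of the BDGP6.54 annotation (plus strand, in dm6 coordinates), which encodes a protein of 82 residues in 2 exons. It had 1645 and 1528 FPKM in the soma and 26.8 and 27.1 FPKM in the germline. Next came CG13083 (FBgn0032789, chromosome 2L from 19487490 to 19488691, plus strand), with 730 and 963 FPKM in the soma and 27.6 and 24.8 in the germline. In both genes the soma values were far above the germline values.

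CG10407, named Jhbp5 in the annotation and a member of the family of juvenile hormone binding proteins, had 542 and 778 FPKM in the soma and 23.5 and 39.9 in the germline, the highest germline value of the 98 genes. CG13114 had 532 and 1053 FPKM in the soma and 20.5 and 17.8 in the germline. CG4009, which encodes a heme peroxidase, had 465 and 828 FPKM in the soma and 15.7 and 18.2 in the germline. Heme peroxidases oxidise their substrates with hydrogen peroxide, and peroxidase activity in the fly eggshell is known to crosslink chorion proteins. Soma and germline values were also far apart for CG14309, with 345 and 782 FPKM in the soma and 14.3 and 18.6 in the germline. For CG15570 they were 333 and 869 against 8.03 and 12.3 FPKM. In these genes soma replicate 2 was above soma replicate 1.

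Further down, CG13084 had 314 and 521 FPKM in the soma and 16.5 and 12.1 in the germline. CG32642 had 307 and 373 FPKM in the soma and 8.19 and 6.83 in the germline, and CG14834 had 304 and 611 against 7.16 and 7.35 FPKM. CG11381 had 273 and 310 FPKM in the soma and 8.07 and 11.9 in the germline. CG5958, a CRAL-TRIO protein of the kind that binds lipophilic molecules such as retinoids, had 271 and 356 FPKM against 13.3 and 5.64. The soma values of CG13299 were 233 and 601 FPKM, those of CG15571 were 185 and 284, those of CG15721 were 141 and 134, and those of CG31928 were 108 and 199. Over the 16 genes, the germline mean was 0.734% to 4.81% of the soma mean.

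**Figure D2:**
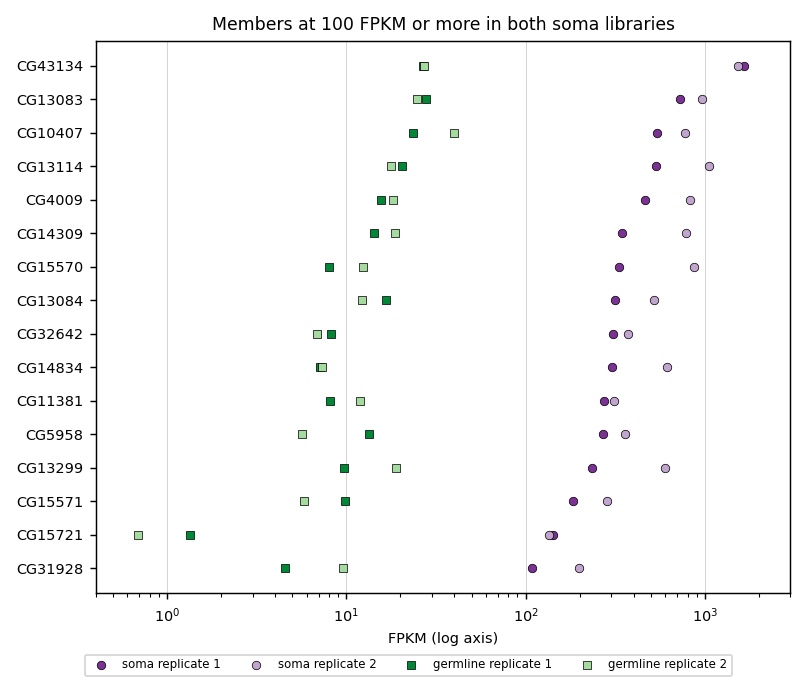
FPKM (log axis) of the 16 genes at 100 FPKM or more in both soma libraries, 1 gene a line, with circles for the 2 soma libraries and squares for the 2 germline libraries. Every soma value is above every germline value of its gene, and in 14 of the 16 genes soma replicate 2 is above soma replicate 1.

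The genes with the largest ratio of the lower soma to the higher germline value were partly others. CG15721 had 1.33 and 0.688 FPKM in the germline, worth 11 and 7 reads, beside 17006 and 465 reads in the soma. Its ratio of 100.8 was the largest. CG15784 had 90.7 and 165 FPKM in the soma and 0.921 and 1.03 in the germline, a ratio of 88.4. CG6508, an aspartic protease, had 64.3 and 116 FPKM in the soma and 0.740 and 0.200 in the germline. Its germline values were worth 3 and 1 reads, so its ratio of 86.8 rests on few reads: counting the lower soma library against both germline libraries, the ratio was 146 with an exact 95% interval of 56.8 to 534. CG11069, a half-size ABC transporter of the G subfamily, had 8.24 and 10.3 FPKM in the soma and a single germline read. Its count ratio was 110, with an interval of 19.7 to 4362 that shows how little 1 read fixes. The large ratios of CG15890 and CG13321 also rested on few germline reads, 1 read for CG15890 and 2 for CG13321, with intervals of 17.9 to 3969 and 11.8 to 354. Those of CG2781 and CG31869 rested on 8 and 21 germline reads, and for CG31869 the interval was 29.2 to 72.2. CG3348 had 70.2 and 52.3 FPKM in the soma and 0 and 1.02 in the germline, with no whole reads recovered. Among the 12 largest ratios were also CG43134, CG14834 and CG32642, described above.

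Reads could be recovered for 94 of the 98 genes, and not for CG13868, CG10407, CG3348 and CG30456. In the germline, 9 genes were at 0 in both libraries and 15 at 0 in 1 of them. For a gene at 0, the lower soma value was set against the value that 3 reads would have had in the germline library where 3 reads are worth more. CG31288, an enzyme of the ecdysteroid kinase-like family, had 11.9 and 21.8 FPKM in the soma and was at least 16.0-fold higher there. CG33926, named Srg3, had 13.04 and 12.9 FPKM in the soma and a bound of 10.3-fold. Its lower soma value rests on 13 reads, and the bound leaves out their counting error. With the soma value taken as exact, these 2 genes were past 10-fold by their bound.

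For the other 7 genes at 0, the reads did not reach a 10-fold bound. The bound was 8.33-fold for CG14636, 7.28 for CG14356, 7.15 for both CG6908 and CG8620, 6.36 for CG14695 and 6.12 for CG15152. CG13315 had 10.03 and 5.25 FPKM in the soma, worth 266 and 4 reads, and its bound was 3.18-fold. A further 20 genes had 1 to 3 reads in a germline library and no more than 3 in either. Their count ratios ran from 16.0 to 146, and the lower end of the exact 95% interval was at least 5 for 19 of them. The exception was CG1648, with 9 reads in soma replicate 2 and 3 in the germline (16.0, interval 3.99 to 91.7). These intervals cover counting error only, and the bounds cover that of the germline alone, with the soma value taken as exact. As the same reads chose the genes, intervals and bounds describe how many reads stand behind a ratio and support no difference.

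In the soma, counting error came mainly from replicate 2. There, 5 genes had fewer than 10 reads (CG1648, CG14695, CG6908, CG13315 and CG8620), 24 fewer than 30 and 50 fewer than 100, while the lowest read number in soma replicate 1 was 186. With 3 reads set as the lowest germline value, 82 of the 94 genes with recovered reads would still have passed the 10-fold threshold.

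Just inside the threshold of 5 FPKM were CG1648, CG6908 and CG13315, with lower soma values of 5.06, 5.07 and 5.25 FPKM. Just outside were CG15673, CG13516 and CG42237, with 4.97, 4.92 and 4.82 FPKM. Just inside the ratio of 10 were CG15347 at 10.2, CG12991 at 10.3 and CG5455 at 10.3. Just outside were CG18547 at 9.98, CG5326 at 9.51 and CG6040 at 9.42. The thresholds therefore cut through a continuous range of values.

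A protein family is given here for 36 of the 98 genes, from the annotation or from general knowledge. For the other 62 none was assigned, which does not mean that they have none. Of the 36, 7 are proteases. Pepsin-like aspartic proteases, which cleave proteins with a pair of aspartates and are mostly secreted or lysosomal, numbered 4. CG31928 had 108 and 199 FPKM in the soma and 4.57 and 9.52 in the germline. CG31926 had 74.3 and 272 against 4.64 and 5.47 FPKM, and CG31661 had 149 and 61.7 against 4.31 and 3.29. CG6508, described above, was the fourth of this group, and its germline reads were the fewest. The metalloproteases were lower. CG9850, the ADAMTS-type protease named sona, had 19.7 and 25.9 FPKM in the soma and 0.613 and 1.49 in the germline. Neprilysins are membrane-bound peptidases that trim short peptides, and 2 genes of the neprilysin-like group were present. CG9505 (Nepl4) had 15.4 and 15.5 FPKM in the soma against 0.295 and 0.597, and CG14526 (Nepl21) had 12.3 and 7.33 against 0.147 and 0.237.

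Oxidoreductases and enzymes of lipid metabolism numbered 7, with soma means from 12.001 to 647 FPKM. CG4009, the peroxidase, stood far above the rest. CG12398, a GMC oxidoreductase of the glucose dehydrogenase type, had 95.8 and 153 FPKM in the soma and 2.92 and 0.697 in the germline. CG9747, a fatty acid desaturase that would introduce a double bond into an acyl chain, had 68.5 and 89.9 against 1.47 and 2.38 FPKM. The steps that build very long fatty acids and reduce them to alcohols were represented by an elongase and a reductase. CG2781 (Elovl7), the elongase, had 28.2 and 43.6 FPKM in the soma and 0.690 and 0.559 in the germline. CG5065, a fatty acyl-CoA reductase, had 9.26 and 15.9 against 0.372 and 0.653. The short-chain dehydrogenases were CG7675, with 39.4 and 39.7 FPKM against 0.245 and 2.38, and CG17121, with 12.7 and 11.3 against 0.712 and 0.385. The 2 lipid-binding proteins, CG10407 and CG5958, were among the 12 highest genes.

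Transporters formed the largest of the groups assigned here, with 10 genes at soma means from 7.77 to 48.4 FPKM. ABC transporters use ATP to move lipids and other substrates across membranes. The 3 genes of the fly's H subfamily were all among the 98. CG9990 (snu) had 23.8 and 30.3 FPKM in the soma and 2.05 and 2.21 in the germline. CG33970 (osy) had 13.7 and 38.0 against 1.09 and 1.02, and CG11147 had 12.5 and 20.6 against 0.112 and 0.910. Both snu and osy are known from the larval cuticle, where they are needed for the lipid barrier against water loss. Assigned to the G subfamily here were CG11069, with 8.24 and 10.3 FPKM against 0 and 0.135, and CG31121, with 7.79 and 7.75 against 0.383 and 0.465. Genes with no family given may belong to it too. Atet, another gene of the G subfamily, passed the same thresholds under its own name, with 25.4 and 24.0 FPKM in the soma and 0.844 and 0.578 in the germline. Genes of the G subfamily that did not pass are not listed, so nothing is said of the subfamily as a whole.

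The other 5 transporters belong to the major facilitator superfamily, whose members carry small solutes. CG3168 had 34.7 and 62.1 FPKM in the soma against 1.12 and 2.45, and CG9864 had 40.8 and 25.9 against 1.36 and 2.20. CG15221 had 8.84 and 13.3 FPKM against 0.409 and 0.111. CG8596, the orthologue of the lysosomal protein CLN7, had 6.91 and 10.8 FPKM against 0.628 and 0.254. CG15890 had 5.65 and 17.4 FPKM against 0.126 and 0, and its soma values were the farthest apart in this group.

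Kinase-like and transferase enzymes numbered 6, with soma means from 6.70 to 19.3 FPKM. The ecdysteroid kinase-like family, whose best known role is the phosphorylation of steroid hormones in insects, had 3 genes. CG31288 and CG6908 were at 0 in the germline, and CG6908 had 10.3 and 5.07 FPKM in the soma. CG13659 had 11.7 and 26.8 FPKM against 0 and 0.424. Of the relatives with a name, CHKov1 and CHKov2 also passed the thresholds, with 9.68 and 13.3 FPKM in the soma for CHKov1 and 12.4 and 6.71 for CHKov2, which was listed at 0 in the germline. Relatives that did not pass are not listed, so nothing is said of the family as a whole. CG10178 (Ugt301D1), a glycosyltransferase that couples sugars to small lipophilic molecules, had 13.1 and 13.5 FPKM against 1.03 and 0. CG31145, a secretory pathway kinase of the FAM20 type, had 5.70 and 7.71 FPKM against 0.550 and 0.446. CG15117, a beta-glucuronidase, had 5.26 and 9.57 FPKM against 0.201 and 0.244.

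Regulatory and structural proteins numbered 4, and none of those with recovered reads had 3 or fewer in both germline libraries. CG9932, a zinc finger protein of 2171 residues, had 32.9 and 28.1 FPKM in the soma against 1.59 and 0.766. CG34417, a calponin homology protein of up to 5182 residues and the longest of the 98, had 12.5 and 14.7 against 0.523 and 0.506. CG9098, an SH2 domain protein, had 8.95 and 10.8 FPKM against 0.544 and 0.809.

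**Figure D3:**
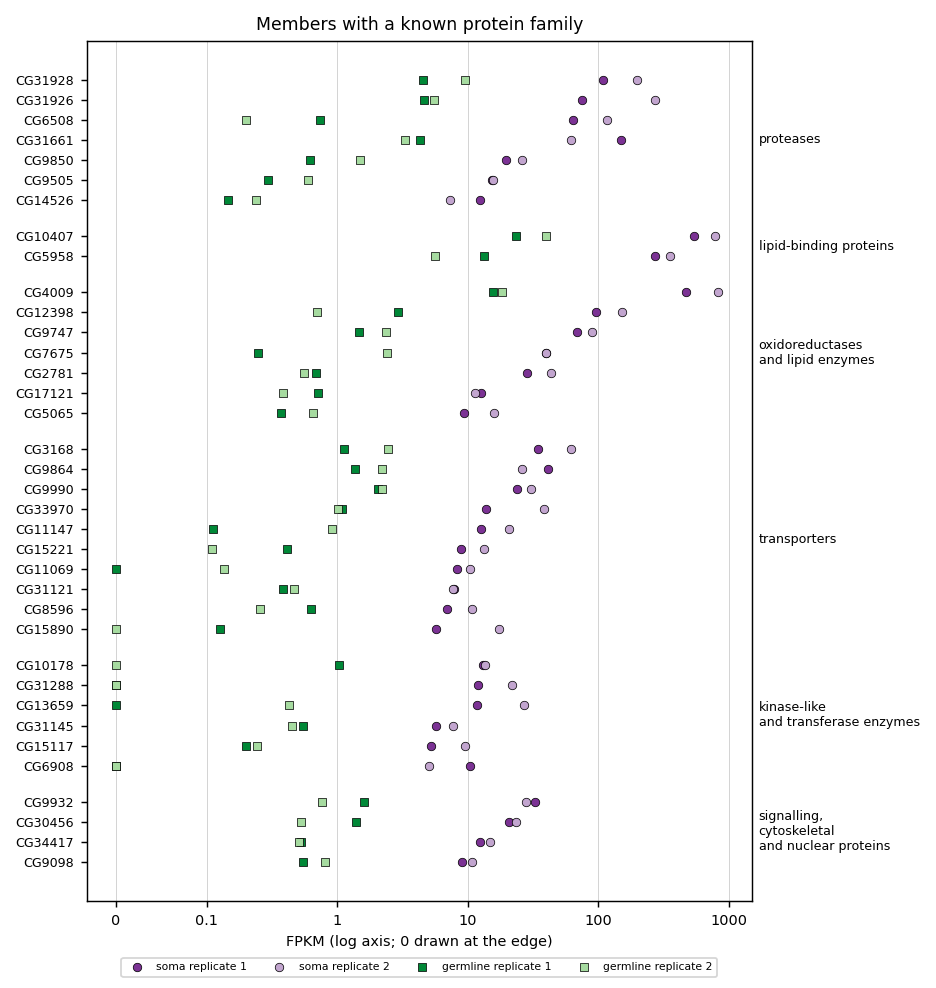
FPKM (log axis, with 0 drawn at the edge) of the 36 genes with a protein family, grouped by family, with circles for the 2 soma libraries and squares for the 2 germline libraries. The soma values run from 5.07 FPKM in CG6908 to 828 in CG4009, and no family holds a gene whose soma and germline values overlap, as the rule requires.

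Some of the genes lay close to other soma-confined genes. An annotated position was found for 97 of the 98 genes, all but CG30456. Of these, 26 (26.8%) had another soma-confined gene within 10 kb, whether a CG gene or a gene with another symbol. Among the 4327 other genes at 5 FPKM or more in both soma libraries that were not soma-confined, 307 did (7.09%), and among the 130 soma-confined genes with another symbol and a position, 37 did (28.5%). The shares are given with no test, as the genes near each other are not independent and were chosen by the rule. Of the 16 genes at 100 FPKM or more, 10 had such a neighbour, against 16 of the 81 others with a position. Genes outside the 98 were not counted at that level. By arm, 22 genes lay on X, 25 on 2L, 13 on 2R, 12 on 3L and 25 on 3R. The shares were 22.7% on X, 25.8% on 2L, 13.4% on 2R, 12.4% on 3L and 25.8% on 3R. Among the other expressed genes they were, in the same order, 17.3%, 19.7%, 19.5%, 19.4% and 23.3%.

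In 9 pairs, 2 of the 98 genes followed each other directly in the annotation. On X, CG15571 (4216873 to 4217394, minus strand) and CG15570 (4218170 to 4223331, plus strand) lay head to head, 775 bases apart, and the lower soma value was 185 FPKM in CG15571 and 333 in CG15570. On 2L, CG13084 and CG13083 lay on the same strand, 957 bases apart, with lower soma values of 314 and 730 FPKM. On 3R, CG7675, the short-chain dehydrogenase, lay 401 bases from CG14309 on the same strand. The neighbours of a pair could differ widely in level. On 3L, CG8596 with its 6.91 and 10.8 FPKM lay 514 bases from CG14834 with its 304 and 611 FPKM. Another 3L pair was CG33946, with 13.98 and 26.2 FPKM in the soma, and CG13299, with 233 and 601, at a distance of 10855 bases.

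The remaining pairs were low in the soma or belonged to a family. On 2R, CG44250 (6.55 and 12.5 FPKM) and CG13321 (6.38 and 19.5 FPKM) lay 818 bases apart on opposite strands. In 3 of the 9 pairs both genes were given the same family here, and kinship within the other pairs was not checked. The transporters CG31121 and CG11069 lay head to head on 3R, 136 bases apart, with soma values between 7.75 and 10.3 FPKM. The kinase-like genes CG31288 and CG13659 lay 1333 bases apart on opposite strands of 3R, and both were about 12 FPKM in soma replicate 1 and over 20 in replicate 2. The aspartic proteases CG31926 and CG31661 lay 171 bases apart on 2L.

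Those 2 proteases belonged to a row of 4 genes within 6289 bases of chromosome 2L, from 1492295 to 1498583, all on the plus strand. The order was CG31928, CG33128, CG31926 and CG31661. CG33128, between the others, was at 0 and 1.17 FPKM in the soma and listed at 0 in the germline, so its soma values were far below those of the 3 genes around it. Of those 3, CG31928 and CG31926 were higher in soma replicate 2, and CG31661 was higher in soma replicate 1.

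Other genes lay among known eggshell genes. CG13998 and CG13992, which are named here for their position and were picked after their values were seen, flank a vitelline membrane cluster on 2L (5956489 to 5967752) that holds Vm26Ab, Vm26Ac, Vm26Aa and psd. CG13998 had 31.4 and 36.8 FPKM in the soma and 1.03 and 1.67 in the germline, and CG13992 had 42.8 and 84.2 against 4.12 and 1.07. In the same stretch, Vm26Aa had 1954 and 2565 FPKM in the soma and psd had 80.2 and 83.6, so CG13992 was below psd in replicate 1, close to it in replicate 2, and far below Vm26Aa in both. CG43134 lay on X beside Femcoat, an eggshell protein gene with 607 and 1151 FPKM in the soma, with Muc4B between them at 46.3 and 178 FPKM. CG15347, with 17.9 and 20.1 FPKM, lay on the far side of 3 genes that were not soma-confined from the chorion genes Cp7Fa, Cp7Fb, Cp7Fc, Cp36 and Cp38, of which Cp38 had 4219 and 6006 FPKM. Also on X, CG32642, CG15721 and CG12716, the last picked for its position in the same way, lay around the mucin-related gene Mur11Da (181 and 336 FPKM) within 17012 bases. CG12716 had 38.2 and 71.6 FPKM in the soma and 0.501 and 2.23 in the germline. On 3L, CG10163, also picked for its position, was next to Best2, of the bestrophin family of chloride channels: CG10163 had 64.1 and 166 FPKM in the soma and Best2 43.8 and 66.5. On 2R, CG1648 and hebe were the 2 soma-confined genes of a stretch with 5 other genes.

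**Figure D4:**
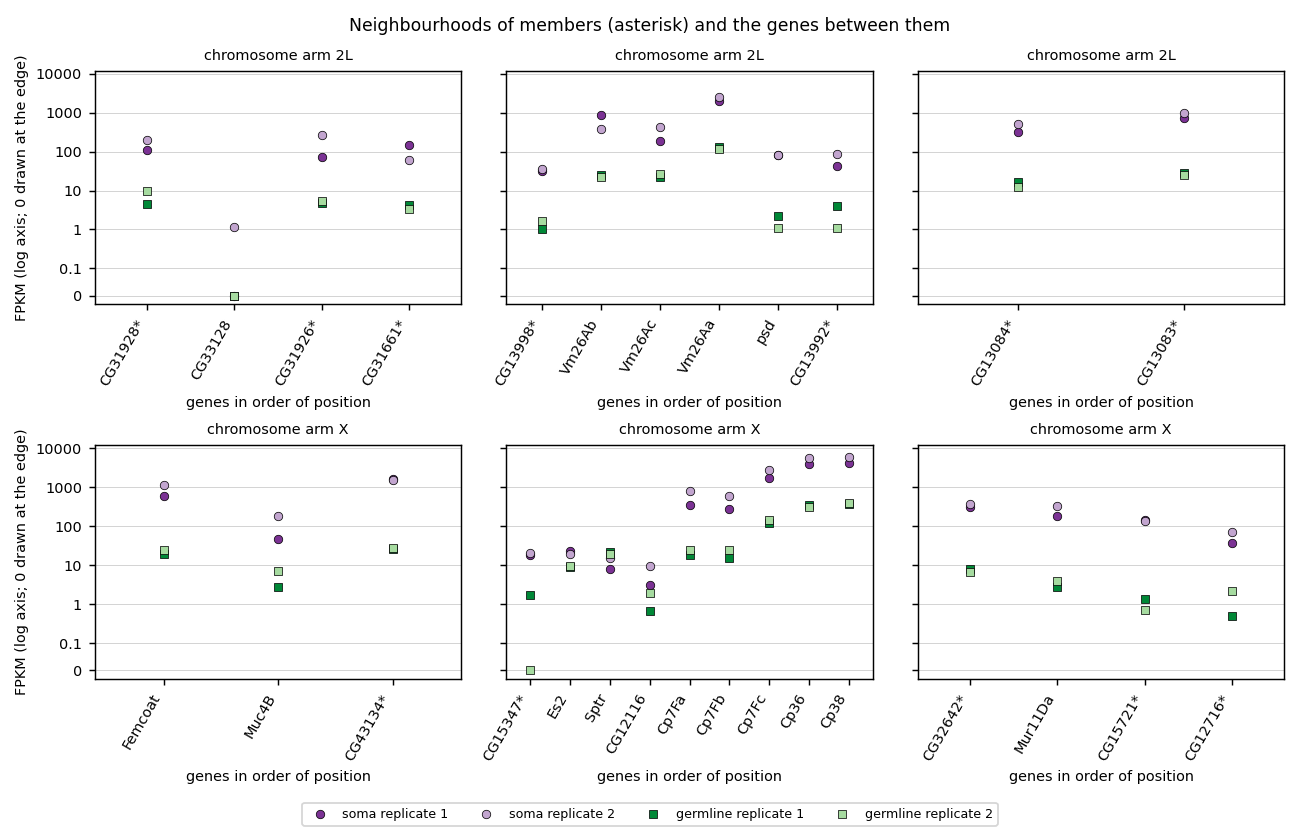
FPKM (log axis, with 0 drawn at the edge) of the protein-coding genes of 6 neighbourhoods in their order along the chromosome, with an asterisk after each of the 98 genes described here, circles for soma and squares for germline libraries. Chorion genes such as Cp38 at 4219 and 6006 FPKM lie far above CG15347 at the other end of their stretch, while CG43134 at 1645 and 1528 FPKM is above Femcoat beside it.

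The gene models of the 97 genes with a position were set beside those of other expressed genes and of all protein-coding genes. The longest annotated protein had a median of 436 residues, from 40 in CG33946 to 5182 in CG34417. Proteins shorter than the limit used here for a small protein (200 residues) were encoded by 22 genes (22.7%), beside 16.2% of the 4375 other protein-coding genes at 5 FPKM or more in both soma libraries and 10.9% of the 128 soma-confined protein-coding genes with another symbol. Over all 13680 protein-coding genes the share was 22.4%, about that of the members. A single exon was annotated for 17 genes (17.5%), beside 10.3% and 7.81%, and 16.6% of all protein-coding genes. At most 2 exons were annotated for 33 genes (34.0%), beside 27.0% and 21.1%, and 38.5% of all protein-coding genes. They were annotated for 9 of the 16 genes at 100 FPKM or more. These are properties of the annotation, and no test was made of them. The rule did not use protein length or exon number, but it is not independent of them. It used the CG symbol and FPKM, which are divided by exon length, so a short gene reaches 5 FPKM with fewer reads.

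Since the annotation was made, 11 of the genes have been given a name. Beside those in the families above, these are CG33926 (Srg3) and CG30069 (Sdb). CG30069, picked for this name after its values were seen and the second longest with 4012 residues, had 5.32 and 7.22 FPKM in the soma and 0.452 and 0.431 in the germline.

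The 2 soma libraries differed in one direction for most of the genes. Of the 98, 72 (73.5%) were higher in soma replicate 2, with a median ratio of replicate 2 to replicate 1 of 1.32. Among the 4579 other genes at 5 FPKM or more in both soma libraries, 56.8% were higher in replicate 2, with a median ratio of 1.06. The ratio was largest for the abundant genes, with a median of 1.60 for the 16 at 100 FPKM or more, 1.31 for the 34 genes from 20 to under 100 FPKM, and 1.23 for the 48 under 20 FPKM. In these 3 classes, 14, 25 and 33 genes were higher in replicate 2. The list of 22 eggshell and yolk genes had a median of 1.34, with 17 higher in replicate 2. Muscle sheath markers also differed between the libraries, summing to 3.96 and 20.6 FPKM in the soma and 14.3 and 1.94 in the germline. As these are 2 single libraries, the spread between flies cannot be told apart from that between preparations, and the part of depth, rRNA and muscle RNA in these ratios was not tested.

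The 2 soma values were more than 2-fold apart in 20 genes, of which 17 were higher in replicate 2 and 3 in replicate 1. Of the latter, CG6891 had 66.4 and 28.5 FPKM, and CG31661 and CG6908 are described above. In 6 genes they were more than 3-fold apart, and in all 6 replicate 2 was the higher. CG4066 had 22.7 and 99.6 FPKM in the soma and 0.770 and 1.56 in the germline, and its 217 reads in soma replicate 2 make counting error small beside this difference. CG43394 had 17.6 and 60.1 FPKM against 1.18 and 1.31, and CG9815 had 5.90 and 21.3 against 0 and 0.382. CG31926, CG15890 and CG13321 were the others.

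**Figure D5:**
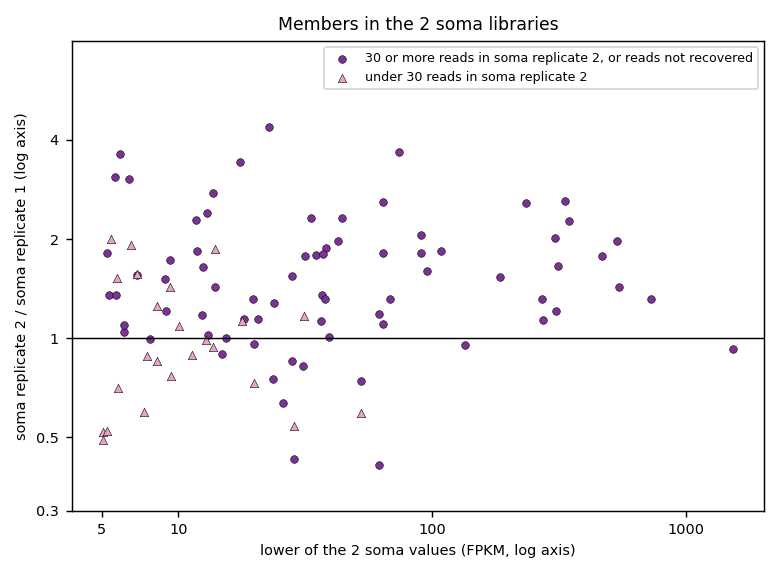
Ratio of soma replicate 2 to soma replicate 1 (log axis) against the lower soma value in FPKM (log axis) for the 98 genes, with triangles for the 24 genes with fewer than 30 reads in soma replicate 2. Of the 98 genes, 72 lie above the line of equal values, and of the 16 at 100 FPKM or more, 14 do.

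Reads of overlapping genes can be mistaken for each other, and whether the authors counted reads by strand is not given in the sources used here. The span of 36 genes overlapped another gene of the annotation, on the other strand for 32 and on the same strand for 7. Most of the partners were at or near 0: those of CG10407, CG33970, CG13868, CG15721, CG32645 and CG13117 were listed at 0 or below 0.1 FPKM in the 4 libraries. For 9 genes a partner was at 5 FPKM or more in a germline library, where the gene itself was low. CG14636, at 0 in both germline libraries, overlaps beta-Man and aux, which had 12.6 and 15.0 and 9.96 and 8.62 FPKM there. CG8596 overlaps lark (19.2 and 21.4 FPKM in the germline), CG31121 overlaps CG11089 (38.3 and 23.7) and CG6891 overlaps CG18259 (17.4 and 16.4). CG9628, with 14.6 and 13.8 FPKM in the soma and 0 and 0.468 in the germline, overlaps RecQ5 (10.5 and 13.5). The germline values of these genes were thus low although the partner was expressed.

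In the soma, the partner can be at or above the level of the gene itself, and such values are uncertain. CG8596 (6.91 and 10.8 FPKM) was below lark in the soma (23.1 and 17.0), and CG31121 (7.79 and 7.75) was below CG11089 (33.0 and 17.0). CG14636 (5.73 and 8.74 FPKM) was below both beta-Man (11.6 and 12.99) and aux (10.4 and 13.2). The soma values of CG6891 were above those of CG18259 (12.3 and 14.2), and those of CG9628 were above those of RecQ5 (6.17 and 5.21). CG3348, with its 70.2 and 52.3 FPKM, overlaps Hmu, which had 52.1 and 54.0 FPKM in the soma and 17.3 and 24.0 in the germline. CG43394 overlaps PAPLA1, with 23.2 and 31.9 FPKM in the soma. The others of the 9 were CG11147, which overlaps CG11030, and CG9850, which overlaps CG5532. The partner of CG12398 is Flo2, with 8.41 and 5.62 FPKM in the soma, far below CG12398, and that of CG13083 is CG10194, at 3.64 and 4.01. CG3168 overlaps a noncoding RNA with 0.319 and 11.1 FPKM in the soma. Partners under 3 FPKM in every library belong to CG31661, CG17169, CG18088, CG31869, CG6508, CG44085, CG10283, CG1648, CG44250, CG30197, CG32091, CG14695, CG14526, CG4325, CG44325, CG15221 and CG12991. The partners of CG17124 have no value in the table.

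The lowest log2 fold change was that of CG31145, at 3.50 ± 0.66 (SE). The highest was that of CG3348, at 7.51 ± 1.06, a gene that overlaps Hmu and was at 0 in germline replicate 1. The 16 genes outside the naming rule had soma means from 6.24 to 138 FPKM and ratios from 10.4 to 34.6, and among them CG1077, picked as an example after its values were seen, had 90.0 and 185 FPKM in the soma and 2.07 and 3.83 in the germline.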

How the data were processed

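Ribosome-bound mRNA was sequenced from 2 soma and 2 germline pull-downs of Drosophila ovaries. The authors deposited FPKM per gene, with decimal commas that were read as decimal points; the submitters' notes name cutadapt, FastQC, HISAT2, DESeq2 and the build dm6, and versions, the annotation and the normalization are not given in the sources used here. Groups came from the sample labels. The members, the gene lists and the families were chosen with earlier results of these data known. Positions, protein lengths and exon lengths came from Ensembl release 115 (BDGP6.54), in which 17216 of the 17490 genes were found by identifier.

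Reads were recovered as FPKM times exon length over a library constant, with a tolerance of 0.03; the floor was 3 reads, and intervals were exact binomial. Neighbours were genes within 10 kb. The comparison of soma with germline used log2(FPKM + 0.1), genes whose mean reached 0.1 FPKM, no replicate block and limma 3.58.1 (R 4.3.3), and the code was tested on simulated data. The pseudocount lowers the fold change of genes that are low but above 0. For a gene at 0 in the germline it sets the fold change, which can lie far above the bound from reads. CG13315, with a bound of 3.18-fold, had a log2 fold change of 6.20. Other steps used Python 3.11.15, numpy 2.4.6 and pandas 2.3.3. Alternatives were other thresholds, pseudocounts, filters, scalings, a block, voom on the reads, and each library left out.

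Genes were named by rule: the 12 highest, the 12 largest ratios, those at 0 in the germline, the 3 nearest each threshold, adjacent members, soma values over 3-fold apart, overlapping genes and genes with a family. Protein identity was not computed and no sequence is printed, since only tables without sequence were used. The result for 1 gene of a family is not reported here.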

Additional observations from a re-analysis of the deposited data

How the results depend on the processing

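The number of genes that meet the rule moved most with its ratio, from 98 to 148 at a ratio of 5 and to 48 at a ratio of 20. It was 125 and 71 with a minimum of 2 and 10 FPKM, and 101 with the excluded genes put back. With each library left out it was 120 to 144. With 3 reads as the lowest germline value it was 82, counted only over the 94 genes with recovered reads. The members' median log2 fold change of 5.08 was 3.88 with a pseudocount of 1, 5.31 with 0.01, 4.69 after quantile normalization, which moved the median of all genes to -0.17, and 4.79 to 5.42 with each library left out. Limma's criteria were met by all 98 under each alternative run on FPKM with 4 libraries, which the rule, set on the same values, largely fixes, so that it is no sign of stability. Without a library, 78 to 98 did: 79 without soma replicate 1 and 78 without soma replicate 2, in fits with 1 soma library that assume it varies like the germline ones. Of the 94 with recovered reads, 94 passed with limma-voom. The 830 genes called in all became 428 with a pseudocount of 1, 544 with adjusted p-values and 675 to 911 with each library left out. Deviations of same-numbered libraries from their group means correlated at -0.0656 over 8823 genes, so the numbers were not taken as pairs, and the replicate block gave 803 genes and again 98 members. The planned share of members with a secretion-type N terminus was not run, because no protein sequence was used. Depth limits the soma values most in replicate 2 and the germline values of the 29 members with at most 3 reads in both libraries, and 2 libraries a group limit every spread.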
